A study of Mus musculus with 114 samples.

Results

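The genes described here are 10 genes of the unfolded protein response (UPR), which were Hspa5, Hsp90b1, Calr, Pdia4, Herpud1, Dnajb9, Xbp1, Atf4, Ddit3 and Trib3. They were taken by symbol from a table of 29132 genes, each symbol was found once, and all 10 passed the filter on low values that left 10343 genes for testing. The RNA came from adipocytes of perigonadal white adipose tissue (PGWAT). The donors were male C57BL/6J mice, kept from 6 weeks of age either on chow (CD) or on high fat feed (HFD). The mice had been on diet for 8, 20 or 34 weeks and were 14, 26 or 40 weeks old, so time on diet and age cannot be told apart. Each group had 6 mice, except that 8 mice were on CD for 34 weeks. Each of the 38 mice had 3 technical replicates that the authors had merged into 1 value, and values are in CPM, the reads of a gene per 1000000 reads on genes, of which a mouse had 9275711 to 15480388. The labels name no transgene, and adipocytes were the cells that floated after collagenase digestion of the fat pad.

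The UPR is the response of cells to unfolded protein in the endoplasmic reticulum (ER), the compartment in which secreted and membrane proteins fold. It has 3 sensors. IRE1 (gene Ern1) splices the Xbp1 mRNA so that it encodes an active transcription factor, PERK (gene Eif2ak3) phosphorylates eIF2 and thereby favours translation of the Atf4 mRNA, and ATF6 (gene Atf6) is cleaved and moves to the nucleus. Their targets include ER chaperones, ER associated degradation (ERAD) and, downstream of ATF4, the factor CHOP (gene Ddit3). Adipocytes secrete adipokines and matrix proteins through the ER. Counts of reads per gene cover neither the splicing of Xbp1, nor translation of Atf4, nor protein.

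ER stress response elements are short promoter motifs through which ATF6 and XBP1 act on chaperone genes. The 250 bases before the annotated start of each gene were therefore searched on both strands for ERSE (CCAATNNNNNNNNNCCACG), ERSE-II (ATTGG, any base, CCACG), the UPRE core (TGACGTGG), the CRE (TGACGTCA) and the C/EBP-ATF element (TGATGNAAT or TGATGNAAC). An ERSE was found in 3 of the 10 genes, Hspa5, Hsp90b1 and Calr, and Hsp90b1 held a pair of them. Among 32851 RefSeq promoters of GRCm38.p6 0.113% held an ERSE. Herpud1 held an ERSE-II, present in 0.0304% of all promoters, and a C/EBP-ATF element, present in 1.52%. The UPRE core (0.563% of all promoters) and the CRE (1.55%) were in none of these windows of the 10 genes. No match says only that these letters are not in this window. Whether the motifs bear on the levels described below was not tested. The stretches that hold the matches are shown 5′ to 3′ on the strand of the gene, with the motifs in capitals. They lie at chr2:34772005-34772063 (plus strand) for Hspa5, chr10:86705513-86705676 (minus strand) for Hsp90b1, chr8:84847055-84847113 (minus strand) for Calr and chr8:94386296-94386407 (plus strand) for Herpud1, where the C/EBP-ATF element comes first. The second ERSE of Hsp90b1, the only ERSE of Calr and the C/EBP-ATF element of Herpud1 read on the opposite strand.
Hspa5: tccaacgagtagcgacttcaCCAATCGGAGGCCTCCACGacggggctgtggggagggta
Hsp90b1: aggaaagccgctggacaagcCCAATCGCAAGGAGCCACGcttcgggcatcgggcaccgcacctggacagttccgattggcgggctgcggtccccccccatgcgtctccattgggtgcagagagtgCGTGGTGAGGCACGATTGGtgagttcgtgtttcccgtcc
Calr: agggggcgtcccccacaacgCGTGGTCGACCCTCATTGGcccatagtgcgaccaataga
Herpud1: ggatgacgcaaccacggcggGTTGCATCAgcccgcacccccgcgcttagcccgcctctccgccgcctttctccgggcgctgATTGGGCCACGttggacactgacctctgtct

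The fraction carried its adipocyte markers, and 14 of 14 were present, with none at 0 in every mouse of a group. Their summed level had a median of 67431 CPM in CD and 49875 CPM in HFD mice at 8 weeks, 67947 and 37621 CPM at 20 weeks, and 51896 and 34056 CPM at 34 weeks. Marker by marker, 2 of 14 rose and 2 fell in HFD mice at 8 weeks, and 10 were not called. At 20 weeks 2 rose and 9 fell, and at 34 weeks 2 rose and 10 fell. Macrophage markers, 17 of 18 in the table and none at 0, rose in HFD mice for 11, 13 and 15 of 17 at the 3 times, and 1 fell at 20 weeks. Their summed level was 505 to 2113 CPM in CD and 1396 to 4211 CPM in HFD mice at 8 weeks, 1126 to 4359 and 5807 to 12248 CPM at 20 weeks, and 1451 to 16081 and 6926 to 20897 CPM at 34 weeks. Endothelial markers rose in HFD mice for 9, 7 and 7 of 9 tested, progenitor and fibroblast markers for 5, 8 and 3 of 8 tested, and B and plasma cell markers for the 2 tested of 10 in the table at each time, and none of them fell. Their part in the differences was not tested. T cell markers summed to at most 5.93 CPM in any mouse. In bulk RNA, fewer cells of a type and less RNA per cell cannot be told apart. Reads on genes did not overlap between the diets at 8 weeks, with 10562845 to 12611013 in CD and 13201234 to 15480388 in HFD mice. Nor did those of CD mice at 8 weeks overlap with CD mice at 20 weeks (13091365 to 14292115). Those of HFD mice at 8 weeks did not overlap with HFD mice at 34 weeks (10714545 to 12271651). Both groups at 20 weeks had more reads than any mouse at 34 weeks (at most 12433584).

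The effect of HFD on the 10 genes was asked at each time with limma on log2(CPM + 1), and a gene is called where the adjusted p is under 0.05. At 8 weeks 4 of 10 were called, 1 higher (Trib3) and 3 lower (Xbp1, Atf4, Pdia4), where 44.9% of all genes tested were called. At 20 weeks 6 of 10 were called, 4 higher (Trib3, Calr, Hsp90b1, Hspa5) and 2 lower (Xbp1, Dnajb9), beside 57% of all genes. At 34 weeks 4 of 10 were called, 3 higher (Calr, Hsp90b1, Herpud1) and 1 lower (Xbp1), beside 43.2%. The shares of the 10 genes were thus near those of all genes, and the direction was mixed at each time. Their median log2 difference was -0.07, 0.02 and 0.13 at 8, 20 and 34 weeks, beside 0.11, 0.14 and 0.07 for all genes. Xbp1 was the 1 gene called at all 3 times, and Ddit3 was called at none.

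**Figure D1:**
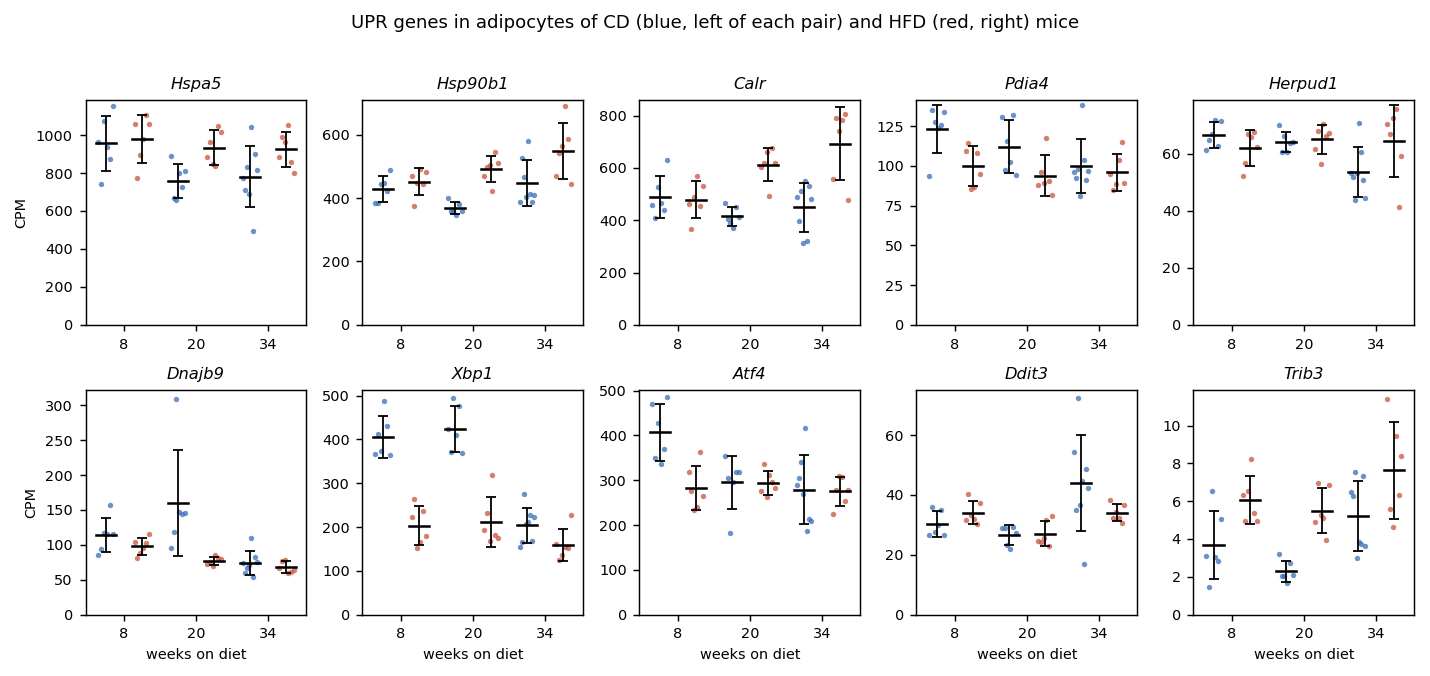
Level of each of the 10 UPR genes in CPM (y axis, from 0) by weeks on diet (x axis). Points are mice, CD in blue to the left and HFD in red to the right of each pair, and lines with bars are the mean and SD of the group. Xbp1 has means of 406 and 424 CPM in CD mice at 8 and 20 weeks and of 159 to 211 CPM in the other groups, and Calr is highest in HFD mice at 20 and 34 weeks.

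Diets were also compared by overlap of the mice. At 8 weeks the CD and HFD mice did not overlap for 1 of the 10 genes (Xbp1), beside 22.8% of all genes. At 20 weeks 5 did not overlap (Hsp90b1, Calr, Dnajb9, Xbp1, Trib3), beside 37.2%, and at 34 weeks none did, beside 2.46%.

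The scale of the values bears on these directions. Among genes called, 66.3%, 67.1% and 63.6% were higher in HFD mice at the 3 times on the CPM scale, but 51.3%, 44.7% and 51.9% after TMM factors and 49.5%, 49.4% and 50.8% after median-of-ratios factors. TMM factors moved the median of all genes by -0.10, -0.21 and -0.09, and median-of-ratios factors by -0.11, -0.16 and -0.09. Of the 30 diet differences of the 10 genes, 6 had another sign under another scaling, and 0 of these 6 were called under any scaling.

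Xbp1, the transcription factor at the end of the IRE1 branch (chr11:5520641-5525993), had the lowest adjusted p of the 10 genes at 8 and at 20 weeks. At 8 weeks it ranged from 365 to 487 CPM (median 393) in CD and from 151 to 264 CPM (median 201) in HFD mice, and every HFD mouse was below every CD mouse. The log2 difference was -1.02 (SE 0.16, adjusted p = 9.58e-06). After 20 weeks the CD mice had 368 to 495 CPM (median 417) and the HFD mice 168 to 319 CPM (median 187), again without overlap, and the difference was -1.03 (SE 0.16, adjusted p = 1.74e-06). Mean levels in HFD mice were 0.501 and 0.498 times those of CD mice at these times. At 34 weeks the ranges overlapped, 153 to 276 CPM (median 210) in CD and 124 to 229 CPM (median 154) in HFD mice. The difference was -0.36 (SE 0.15, adjusted p = 0.0447), and this call was lost when any of 10 single mice was left out (CD mice 3, 4, 5, 6 and 8, HFD mice 1 to 5; adjusted p from 0.0509 to 0.131). Without HFD mouse 6, the mouse at 229 CPM, the difference was -0.47 (adjusted p = 0.00843).

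Atf4, the factor whose translation PERK and other eIF2 kinases favour (chr15:80255184-80257545), fell in HFD mice at 8 weeks. It ranged from 337 to 487 CPM (median 399) in CD and from 234 to 362 CPM (median 270) in HFD mice, and 5 of 6 HFD mice were below the lowest CD mouse. The log2 difference was -0.53 (SE 0.16, adjusted p = 0.00707). CD and HFD mice overlapped at the later times, with means of 296 ± 59.1 and 294 ± 26.8 CPM (SD, n = 6 each) at 20 weeks and 279 ± 77.0 (n = 8) and 275 ± 32.6 CPM (n = 6) at 34 weeks. The differences were 0.02 at both times (95% intervals -0.30 to 0.34 and -0.28 to 0.32), with adjusted p of 0.929 and 0.926.

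Ddit3 encodes CHOP, a factor linked to cell death under lasting ER stress (chr10:127290793-127296291). In CD and HFD mice it ranged from 26.4 to 36.0 (median 28.8) and 30.2 to 40.4 CPM (median 32.7) at 8 weeks, and from 21.8 to 29.3 (median 28.1) and 22.9 to 32.9 CPM (median 25.1) at 20 weeks. At 34 weeks the CD mice spread from 17.0 to 72.3 CPM (median 43.5), and all HFD mice lay inside that range, at 30.6 to 38.2 CPM (median 33.4). The log2 differences were 0.17 (SE 0.18), 0.01 (SE 0.18) and -0.27 (SE 0.17), with adjusted p of 0.448, 0.951 and 0.193. At 20 weeks the 95% interval ran from -0.35 to 0.38. Without CD mouse 6, the mouse at 17.0 CPM, the difference at 34 weeks was -0.44 (adjusted p = 0.0055), and edgeR called it as well (-0.45, adjusted p = 0.0221).

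Trib3, a pseudokinase gene downstream of ATF4 and CHOP (chr2:152337425-152344060), was the lowest of the 10 genes per length of exon, at 2.36 CPM per kb, and its reads per mouse numbered 18 to 127. It rose in HFD mice at 8 and 20 weeks. At 8 weeks it ranged from 1.47 to 6.53 CPM (median 3.07) in CD and from 4.92 to 8.21 CPM (median 5.87) in HFD mice, with a log2 difference of 0.67 (SE 0.22, adjusted p = 0.0144). That call was lost without CD mouse 2, the mouse at 1.47 CPM (0.50, adjusted p = 0.0605), and with edgeR (adjusted p = 0.0549). At 20 weeks CD mice had 1.68 to 3.22 CPM (median 2.07) and HFD mice 3.96 to 6.98 CPM (median 5.17), with no overlap and a difference of 0.98 (SE 0.22, adjusted p = 0.000348). At 34 weeks the ranges of 2.98 to 7.57 CPM (median 5.05) in CD and 4.64 to 11.4 CPM (median 7.36) in HFD mice overlapped, and the difference of 0.48 (SE 0.21) had an adjusted p of 0.0603. It was called there without any of 5 single mice (CD mice 1, 2, 3 and 7, HFD mouse 3; adjusted p from 0.0319 to 0.0499).

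**Figure D2:**
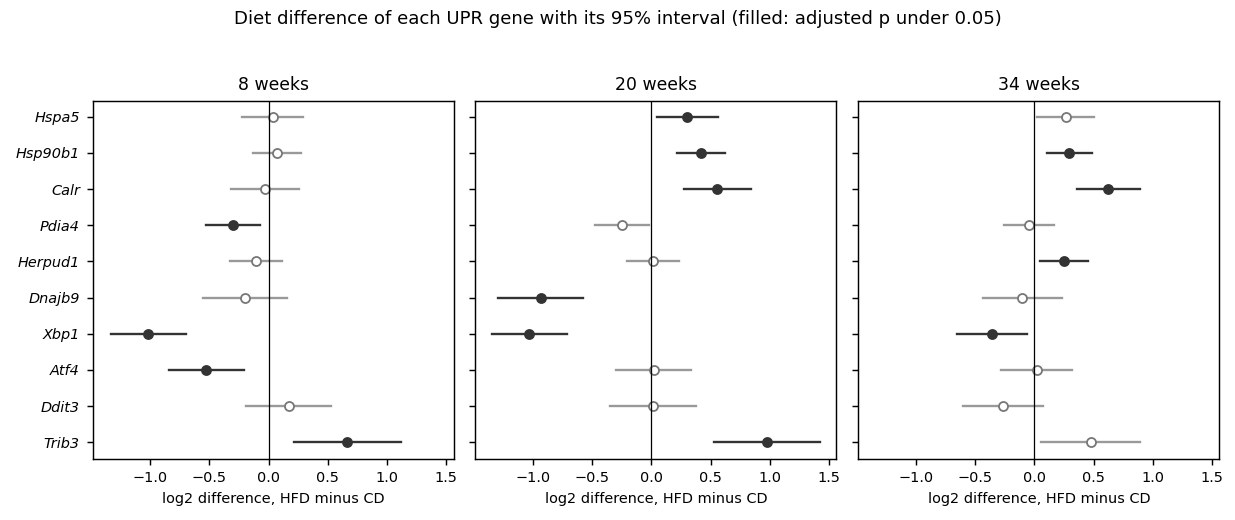
Log2 difference between HFD and CD mice (x axis, log2(CPM + 1)) of each UPR gene (y axis) at 8, 20 and 34 weeks, with its 95% interval. Filled points have an adjusted p under 0.05. Xbp1 lies at -1.02 and -1.03 at 8 and 20 weeks and at -0.36 at 34 weeks, and Calr moves from -0.03 to 0.56 and 0.63.

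Calr encodes calreticulin, a lectin chaperone that holds calcium in the ER (chr8:84842088-84846931). CD and HFD mice had 409 to 631 (median 462) and 365 to 569 CPM (median 475) at 8 weeks, and the difference was -0.03 (SE 0.14, adjusted p = 0.885). On diet for 20 weeks, the CD mice had 371 to 465 CPM (median 408) and the HFD mice 494 to 678 CPM (median 619), without overlap. The log2 difference was 0.56 (SE 0.14, adjusted p = 0.00113), with means of 415 ± 36.0 and 613 ± 64.3 CPM (SD, n = 6 each). At 34 weeks the CD mice had 314 to 549 CPM (median 485), and 5 of 6 HFD mice were above all of them, in a range of 477 to 808 CPM (median 761). The difference was 0.63 (SE 0.13, adjusted p = 0.000468), and no single mouse left out ended the call at either time. After TMM factors the difference at 20 weeks was 0.34 (adjusted p = 0.0199), and with a macrophage term it was 0.19 and no longer called (adjusted p = 0.368).

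Hsp90b1 encodes GRP94, the HSP90 of the ER (chr10:86690841-86705444). At 8 weeks its levels overlapped, at 384 to 489 CPM (median 433) in CD and 374 to 493 CPM (median 459) in HFD mice. By 20 weeks the CD mice had 348 to 401 CPM (median 359) and the HFD mice 424 to 545 CPM (median 502), with no overlap. The log2 differences were 0.08 (SE 0.10, adjusted p = 0.556) and 0.42 (SE 0.10, adjusted p = 0.000644), and the latter was 0.20 after TMM factors (adjusted p = 0.0751). After 34 weeks the CD mice had 387 to 581 CPM (median 413) and the HFD mice 445 to 691 CPM (median 552), with 2 HFD mice above all CD mice. That difference of 0.30 (SE 0.09, adjusted p = 0.0112) lost its call without HFD mouse 4 (0.23, adjusted p = 0.0511), and after TMM factors (0.21, adjusted p = 0.0657), median-of-ratios factors and with edgeR.

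Hspa5 encodes BiP, the HSP70 of the ER that binds and restrains the 3 sensors (chr2:34772090-34776529). It had the highest level of the 10 genes per length of exon, with a median of 209 CPM per kb, ahead of Calr (170), Atf4 (127) and Hsp90b1 (111). In CD and HFD mice it ranged from 743 to 1151 (median 949) and 775 to 1108 CPM (median 1019) at 8 weeks, and from 659 to 890 (median 762) and 837 to 1050 CPM (median 925) at 20 weeks. Ranges at 34 weeks were 495 to 1041 CPM (median 795) and 803 to 1054 CPM (median 925). The diets thus overlapped at each time. The log2 differences were 0.04 (SE 0.13, adjusted p = 0.832), 0.30 (SE 0.13, adjusted p = 0.0407) and 0.27 (SE 0.12, adjusted p = 0.0662). At 20 weeks the call was lost without any of 6 single mice (CD mice 2, 3 and 5, HFD mice 2, 5 and 6; adjusted p from 0.0650 to 0.0950). It was also lost after TMM factors (0.08, adjusted p = 0.523), after median-of-ratios factors (0.13, adjusted p = 0.327) and with edgeR (adjusted p = 0.430). At 34 weeks it was called without CD mouse 5 or 7 or HFD mouse 6 (adjusted p from 0.0173 to 0.0429).

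Pdia4, a protein disulfide isomerase (chr6:47796141-47813512), fell in HFD mice at 8 weeks. At 8 weeks it ranged from 93.9 to 135 CPM (median 127) in CD and from 85.6 to 114 CPM (median 101) in HFD mice, and all 6 HFD mice were below the CD mean. The log2 difference was -0.30 (SE 0.11, adjusted p = 0.0288), but the call was lost without any of 6 single mice (CD mice 2, 3 and 6, HFD mice 3, 4 and 6; adjusted p from 0.0519 to 0.0806). At 20 weeks the ranges were 94.2 to 132 CPM (median 109) and 81.7 to 118 CPM (median 89.8), and the difference of -0.25 (SE 0.11) missed the threshold with an adjusted p of 0.0559. It passed there after TMM factors (-0.47, adjusted p = 0.000974), with edgeR (adjusted p = 0.00158) and without CD mouse 2 or 6 or HFD mouse 4. At 34 weeks the difference was -0.05 (SE 0.11, adjusted p = 0.739), in ranges of 81.2 to 138 CPM (median 96.4) and 84.7 to 115 CPM (median 91.8).

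Dnajb9 encodes ERdj4, a BiP cochaperone and a target of XBP1 (chr12:44205897-44210068). At 8 weeks the CD mice had 84.8 to 157 CPM (median 116) and the HFD mice 81.1 to 116 CPM (median 99.3), a log2 difference of -0.20 (SE 0.18, adjusted p = 0.358). After 20 weeks CD mice had 94.9 to 309 CPM (median 144) and all HFD mice were below them, at 69.9 to 84.9 CPM (median 77.6). The difference was -0.94 (SE 0.18, adjusted p = 3.39e-05), and without CD mouse 3, the mouse at 309 CPM, it was -0.72 (adjusted p = 9.06e-05). The diets overlapped again at 34 weeks, with 54.4 to 110 CPM (median 72.2) in CD and 59.0 to 78.7 CPM (median 65.6) in HFD mice (-0.10, SE 0.16, adjusted p = 0.625).

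Herpud1, an ERAD component at the ER membrane (chr8:94386429-94395371), had 61.2 to 72.0 CPM (median 65.9) in CD and 52.3 to 67.6 CPM (median 64.3) in HFD mice at 8 weeks. Ranges at 20 weeks were 60.6 to 70.0 CPM (median 64.0) and 56.6 to 70.3 CPM (median 66.8). At 34 weeks they were 43.8 to 70.7 CPM (median 52.5) and 41.3 to 75.8 CPM (median 68.6), and 5 of 6 HFD mice were above the CD mean. The log2 differences were -0.10 (SE 0.11, adjusted p = 0.443), 0.02 (SE 0.11, adjusted p = 0.914) and 0.25 (SE 0.10, adjusted p = 0.0430). The call at 34 weeks was lost without any of 10 of the 14 mice (CD mice 1, 2, 3, 4, 7 and 8, HFD mice 1 to 4; adjusted p from 0.0523 to 0.125), and after TMM factors (0.16, adjusted p = 0.189).

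Whether the diet difference itself changed with time was tested with interaction terms of the same fit. Between 8 and 20 weeks 0 of the 10 genes were called by limma, beside 4.49% of all genes, with 4 at an unadjusted p under 0.05 and 1 called by edgeR. That gene was Dnajb9, with a change of -0.94 (adjusted p = 0.0400) in edgeR and -0.74 (SE 0.25, adjusted p = 0.0697) in limma. Between 20 and 34 weeks 2 of 10 were called, beside 10.5%. The diet difference of Dnajb9 moved up by 0.83 (SE 0.24, adjusted p = 0.0233) and that of Xbp1 by 0.67 (SE 0.21, adjusted p = 0.0376), so both lay nearer 0 at 34 weeks. The call of Xbp1 was lost without any of 11 single mice (CD mice 3, 4 and 5 and HFD mice 1, 3, 5 and 6 at 20 weeks, CD mice 1, 2 and 7 and HFD mouse 6 at 34 weeks; adjusted p from 0.0539 to 0.0751). Between 8 and 34 weeks 2 of 10 were called, beside 28.8%. Xbp1 moved up by 0.66 (SE 0.21, adjusted p = 0.0200) and Calr by 0.65 (SE 0.19, adjusted p = 0.0110), from -0.03 to 0.63. Atf4 had 0.55 (SE 0.21) with an adjusted p of 0.0519, and was called after TMM factors (adjusted p = 0.0310) and by edgeR (adjusted p = 0.0405). These comparisons share groups and are not independent of each other.

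Time was examined in the CD mice, where age and weeks of feeding advance together. From 8 to 20 weeks 0 of the 10 genes were called by limma or by edgeR, beside 3.58% of all genes, with 4 at an unadjusted p under 0.05 (Atf4, Hspa5, Dnajb9 and Hsp90b1). From 8 to 34 weeks 7 of 10 were called, beside 64.7%, and 6 of them fell. Of all genes tested 40.1% rose and 24.6% fell in this comparison. Xbp1 fell from a mean of 406 ± 48.1 (n = 6) to 204 ± 40.3 CPM (n = 8), a log2 difference with a 95% interval of -1.30 to -0.71 (adjusted p = 7.53e-07). The other falls were Dnajb9 (-0.62, adjusted p = 0.00144), Atf4 (-0.58, adjusted p = 0.000975), Herpud1 (-0.32, adjusted p = 0.00605), Pdia4 (-0.31, adjusted p = 0.0110) and Hspa5 (-0.31, adjusted p = 0.0232). The call of Hspa5 was lost without CD mouse 3 or 6 at 8 weeks or CD mouse 6 at 34 weeks (adjusted p from 0.0599 to 0.0747). Ddit3 rose by 0.44 (SE 0.17, adjusted p = 0.0219), from 30.3 ± 4.27 to 43.9 ± 16.0 CPM, but was not called without CD mouse 3 at 34 weeks, the mouse at 72.3 CPM (0.32, adjusted p = 0.0664), or after TMM factors (0.31, adjusted p = 0.0769). Macrophage markers moved as well, and 14 of 17 rose from 8 to 34 weeks in CD mice.

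The HFD mice were compared over time as well. From 8 to 20 weeks 1 of 10 was called, beside 36.5% of all genes. That was Calr (0.36, SE 0.14, adjusted p = 0.0420), whose call was lost without any of 9 of the 12 mice (HFD mice 1, 2, 3 and 5 at 8 weeks, HFD mice 1, 2, 3, 5 and 6 at 20 weeks; adjusted p from 0.0520 to 0.119) and with edgeR. From 8 to 34 weeks 3 of 10 were called, beside 52.5%. Calr rose by 0.52 (SE 0.14, adjusted p = 0.00253) and Hsp90b1 by 0.27 (SE 0.10, adjusted p = 0.0225), and Dnajb9 had -0.52 (SE 0.18, adjusted p = 0.0128). Hsp90b1 was not called without HFD mouse 2 at 8 weeks or HFD mouse 4 at 34 weeks (adjusted p 0.0752 and 0.0912). Xbp1 had -0.35 (SE 0.16) with an adjusted p of 0.0601.

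The order of the 6 groups differed between the genes. Xbp1 was highest in CD mice at 20 and 8 weeks (mean log2 levels 8.72 and 8.66), and the next group, HFD mice at 20 weeks, lay 0.97 lower (adjusted p = 3.55e-06). HFD mice at 20 weeks, CD mice at 34 weeks and HFD mice at 8 weeks followed within 0.05 of each other and did not differ beyond their spread (adjusted p 0.852 and 0.955). HFD mice at 34 weeks were lowest, 0.35 under HFD mice at 8 weeks (adjusted p = 0.0601). Atf4 was highest in CD mice at 8 weeks, 0.46 above the next group (adjusted p = 0.0133), and the 5 other groups did not differ between neighbours (adjusted p from 0.804 to 0.929). Calr was highest in HFD mice at 34 and 20 weeks, and the latter lay 0.34 above CD mice at 8 weeks (adjusted p = 0.0420). In the other 7 genes no neighbouring groups differed beyond their spread. Neighbours too were picked by their values, so these adjusted p-values of limma only describe the order. Groups farther apart can differ, as CD and HFD mice at 20 weeks did for Dnajb9 (-0.94 by limma, adjusted p = 3.39e-05). The distance from the highest to the lowest group is given without a test, since those groups were picked by their values. On the log2 scale it was 1.42 for Xbp1 (CD mice at 20 and HFD mice at 34 weeks), 1.35 for Trib3 (HFD mice at 34 and CD mice at 20 weeks), 1.13 for Dnajb9 (the same pair as Xbp1) and 0.56 for Hsp90b1 (the same pair as Trib3). It was 0.62 for Ddit3 (CD mice at 34 and at 20 weeks), 0.39 for Pdia4 (CD mice at 8 and HFD mice at 20 weeks), 0.36 for Hspa5 (HFD mice at 8 and CD mice at 20 weeks) and 0.32 for Herpud1 (CD mice at 8 and at 34 weeks).

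The 3 sensors were read from a list of 12 genes of the sensors and their processing. Ern1, which encodes IRE1, had a mean of 46.5 ± 13.6 CPM in CD and 28.5 ± 8.16 CPM in HFD mice at 8 weeks, and fell by 0.68 on the log2 scale (SE 0.22, adjusted p = 0.0124). Its differences were -0.05 (adjusted p = 0.847) at 20 and 0.36 (adjusted p = 0.150) at 34 weeks. Eif2ak3, which encodes PERK, had 17.1 ± 2.84 and 27.3 ± 5.05 CPM at 8 weeks, and 13.8 ± 4.33 and 25.6 ± 3.99 CPM at 20 weeks. It rose at both times (0.64, SE 0.14, adjusted p = 0.000681, and 0.88, SE 0.14, adjusted p = 5.31e-06), and at 34 weeks had 0.28 (adjusted p = 0.0877). Atf6 rose at 34 weeks (0.43, SE 0.11, adjusted p = 0.00297), with 77.3 ± 15.1 CPM in CD and 105 ± 23.3 CPM in HFD mice, and had -0.03 and 0.10 at 8 and 20 weeks. Of the 12 genes 3 rose and 3 fell at 8 weeks, 4 rose and 0 fell at 20 weeks, and 4 rose and 0 fell at 34 weeks. Over all genes tested 29.8%, 38.3% and 27.5% rose and 15.1%, 18.7% and 15.7% fell at the 3 times, which is the background for the lists that follow too. Creb3, an ER membrane factor of the ATF6 kind (0.70, adjusted p = 2.61e-05), and Mbtps2, the protease that completes ATF6 cleavage (0.69, adjusted p = 9.36e-05), were next to Eif2ak3 at 20 weeks. After TMM factors 4 rose and 2 fell at 20 weeks, and Eif2ak3, Creb3 and Mbtps2 were called higher there.

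Beside the 10 genes, 25 other ER chaperones and folding enzymes were tested. At 8, 20 and 34 weeks 10, 17 and 13 of them rose and 0, 1 and 1 fell, with medians of 0.23, 0.40 and 0.27 beside 0.11, 0.14 and 0.07 over all genes. Sdf2l1, a partner of ERdj proteins, went from 5.34 ± 2.86 CPM in CD to 23.4 ± 3.73 CPM in HFD mice at 20 weeks (2.03, SE 0.28, adjusted p = 4.79e-07). Ero1lb, an oxidase that recharges disulfide isomerases, went from 9.28 ± 1.99 to 22.6 ± 4.21 CPM (1.20, SE 0.17, adjusted p = 9.76e-07), and Erp29 from 64.6 ± 6.64 to 111 ± 15.2 CPM (0.77, SE 0.16, adjusted p = 0.000141). Txndc5, a disulfide isomerase, was the 1 that fell (-0.19, SE 0.06, adjusted p = 0.0135). After TMM factors 12 rose and 4 fell at 20 weeks.

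In ERAD, which returns misfolded proteins to the cytosol, 9 of 20 genes rose and 2 fell at 20 weeks, with a median of 0.17 beside 0.14 over all genes. Those with the largest rises were Edem1 (0.73, SE 0.11, adjusted p = 1.39e-06) and Edem2 (0.59, SE 0.11, adjusted p = 2.10e-05), which act on misfolded glycoproteins, and Sel1l (0.64, SE 0.13, adjusted p = 6.18e-05), an adaptor of a ubiquitin ligase. Derl1, a channel component, fell from 360 ± 44.6 to 225 ± 42.5 CPM (-0.69, SE 0.13, adjusted p = 5.14e-05). At 8 weeks 4 rose and 1 fell, and at 34 weeks 7 rose and 3 fell. After TMM factors 3, 3 and 2 rose and 2, 4 and 3 fell at 8, 20 and 34 weeks. In the translocation of proteins into the ER, 9, 7 and 4 of 16 genes rose and 0, 1 and 0 fell at the 3 times, with medians of 0.25, 0.20 and 0.08. With TMM factors 4, 2 and 3 of these 16 rose and 3, 5 and 2 fell. Sec11c (1.07, SE 0.17, adjusted p = 2.50e-06) and Spcs3 (0.91, SE 0.17, adjusted p = 2.34e-05) of the signal peptidase and Sec61b of the channel (0.38, SE 0.14, adjusted p = 0.0232) led at 20 weeks, and Srpr, the receptor of the signal recognition particle, fell by 0.19 (SE 0.06, adjusted p = 0.0133). After TMM factors Sec61b was not called (0.17, adjusted p = 0.312).

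The targets of ATF4 and CHOP together with the other eIF2 kinases moved both ways. Of 36 genes tested 7, 13 and 6 rose and 6, 8 and 7 fell at 8, 20 and 34 weeks, with medians of 0.09, 0.15 and 0.08 beside 0.11, 0.14 and 0.07 over all genes, and after TMM factors 8 rose and 12 fell at 20 weeks. Gpt2, a mitochondrial alanine transaminase, went from 682 ± 159 to 173 ± 11.9 CPM (-1.94, SE 0.19, adjusted p = 5.48e-09), and Asns, asparagine synthetase, from 144 ± 31.1 to 56.6 ± 12.5 CPM (-1.33, SE 0.20, adjusted p = 1.86e-06). Nupr1, a stress regulator, fell by 0.81 (SE 0.21, adjusted p = 0.00145). Gdf15, a stress hormone that macrophages make as well, went from a mean of 23.8 to 103 CPM (2.15, SE 0.44, adjusted p = 0.000104). Aldh18a1, of proline synthesis (1.14, SE 0.23, adjusted p = 0.000102), and Ddit4, an inhibitor of mTORC1 (1.04, SE 0.28, adjusted p = 0.00197), were the next largest rises.

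**Figure D3:**
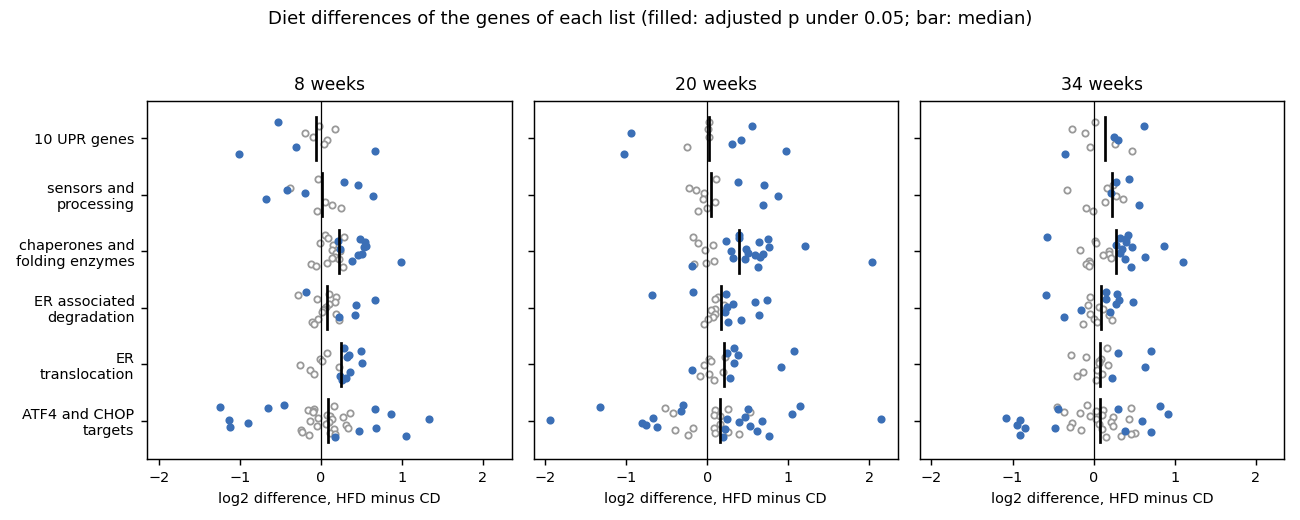
Log2 difference between HFD and CD mice (x axis, log2(CPM + 1)) of each gene of the 6 lists (y axis) at 8, 20 and 34 weeks. Points are genes, filled where the adjusted p is under 0.05, and bars are list medians. At 20 weeks the median of the chaperones and folding enzymes is 0.40 and that of the 10 UPR genes 0.02.

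Because macrophage markers moved with diet, the fit was repeated with the mean of 17 macrophage markers as a term. Calls at 20 weeks then went from 6 to 3 of the 10 genes. Xbp1 (-0.72, adjusted p = 0.00368), Dnajb9 (-0.97, adjusted p = 0.00183) and Trib3 (0.85, adjusted p = 0.0240) were still called. Calr (0.19) was not called, nor were Hsp90b1 (0.14, adjusted p = 0.334) and Hspa5 (-0.01, adjusted p = 0.961). At 8 weeks Xbp1 (-0.82, adjusted p = 0.000242), Atf4 (-0.72, adjusted p = 0.000946) and Pdia4 (-0.36, adjusted p = 0.0252) were called, and at 34 weeks Calr alone (0.38, adjusted p = 0.0454). With this term 6 rather than 17 of the other chaperones and folding enzymes rose at 20 weeks, among them Sdf2l1 (1.04, adjusted p = 0.00142) and Ero1lb (0.56, adjusted p = 0.00335), while Erp29 had 0.29 (adjusted p = 0.180). At 34 weeks 2 rather than 13 of these rose with the term, and 0 of the 12 sensor genes were called, so Atf6 was not. In the other lists at 20 weeks, 3 of 12 sensor genes and 5 of 20 ERAD genes rose with the term, and 0 fell. There 1 of 16 translocation genes rose and 1 fell, and 3 of 36 genes of the ATF4 and CHOP list rose and 4 fell. Diet and the macrophage markers move together, so what either does alone cannot be told apart in these libraries.

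**Figure D4:**
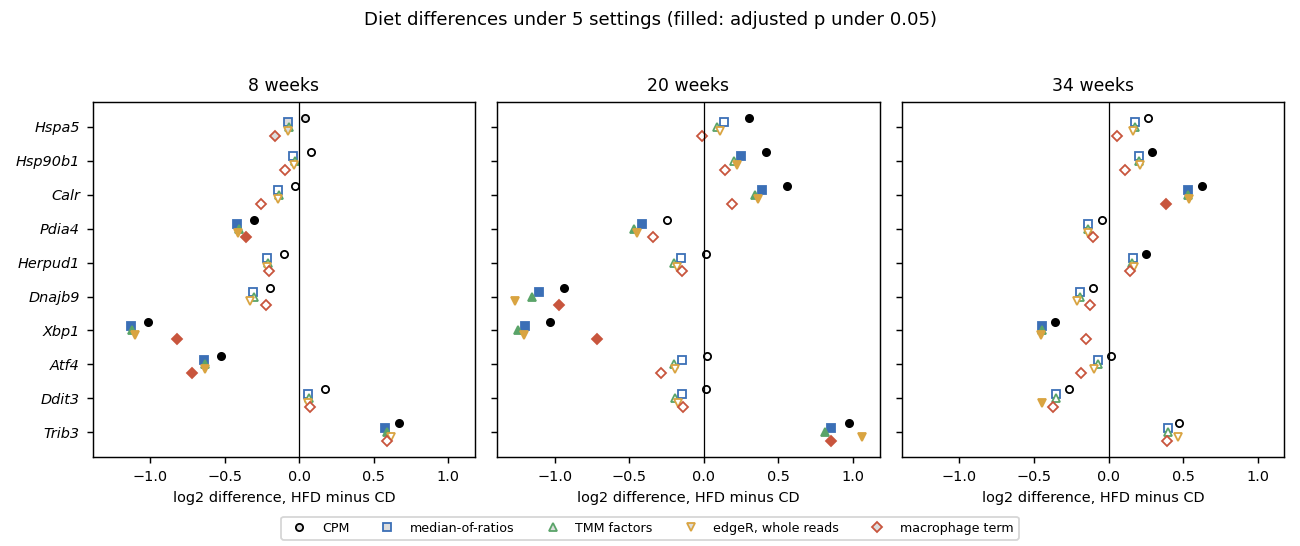
Log2 difference between HFD and CD mice (x axis) of each UPR gene (y axis) at 8, 20 and 34 weeks under 5 settings, which are CPM, median-of-ratios factors, TMM factors, edgeR on whole reads and CPM with a macrophage term. Filled symbols have an adjusted p under 0.05. At 20 weeks Xbp1, Dnajb9 and Trib3 are called under all 5, while Hspa5 is called on CPM only and lies at -0.01 with the macrophage term.

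Mice within a group were used to ask which of the genes moved together. Group means were removed from log2(CPM + 1), and 55 relations over 38 mice were tested by two-sided permutation within groups (100000 resamples), with adjustment over the 55. Of 45 pairs of UPR genes 6 were called, 5 of them positive, and the median r over all pairs was 0.16. An absolute r of at least 0.50, the smallest among the 6, was reached by 16.8% of all pairs of the 10343 genes, so the number of pairs was near the background. Hspa5 and Calr had r = 0.73 and rho = 0.70 (permutation p = 1e-05 for both, the smallest the resamples can give, adjusted 0.00055). Without the 2 mice farthest from the median of the gene named first, r was 0.68. The other pairs were treated by the same rule, which does not look at the second gene. Hsp90b1 and Calr had r = 0.64 and rho = 0.63 (permutation p = 0.00043 and 0.00023, adjusted 0.00674 and 0.00399, r = 0.61 without 2 mice). Hspa5 and Hsp90b1 had r = 0.54 and rho = 0.55 (permutation p = 0.00152 and 0.00086, adjusted 0.0139 and 0.00816, r = 0.48 without 2 mice).

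Hspa5 and Atf4 had r = 0.58 and rho = 0.51 (permutation p = 0.00131 and 0.00397, adjusted 0.0139 and 0.0273), and r fell to 0.39 without 2 mice. Pdia4 and Xbp1 had r = 0.51 and rho = 0.60 (permutation p = 0.00228 and 0.00029, adjusted 0.0162 and 0.00399, r = 0.55 without 2 mice). Calr and Xbp1 went in opposite directions, with r = -0.50 and rho = -0.45 (permutation p = 0.00386 and 0.00891, adjusted 0.0236 and 0.0545, r = -0.44 without 2 mice). Herpud1, Dnajb9, Ddit3 and Trib3 were in none of the pairs called. After TMM factors 2 of the 45 pairs were called, Hspa5 with Calr (r = 0.64, adjusted permutation p = 0.00055) and Pdia4 with Xbp1 (r = 0.61, adjusted permutation p = 0.0066).

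Within groups the macrophage marker mean was related to 4 of the 10 genes. Its absolute r with 36.8% of the 10326 genes tested that were not among these markers was at least 0.44, the smallest among the 4, so this count was near the background too. It rose with Hsp90b1 (r = 0.64, rho = 0.61, permutation p = 0.0001 and 0.00028, adjusted 0.00275 and 0.00399, r = 0.55 without 2 mice) and with Calr (r = 0.57, rho = 0.57, permutation p = 0.00049 and 0.00089, adjusted 0.00674 and 0.00816, r = 0.53 without 2 mice). For Hspa5 it had r = 0.56 and rho = 0.45 (permutation p = 0.00235 and 0.0115, adjusted 0.0162 and 0.0635, r = 0.44 without 2 mice). With Xbp1 the relation was negative (r = -0.44, rho = -0.51, permutation p = 0.00441 and 0.00159, adjusted 0.0243 and 0.0125, r = -0.54 without 2 mice). After TMM factors the relation with Xbp1 was the 1 still called (r = -0.54, adjusted permutation p = 0.0066). In these relations the 2 mice left out were those farthest from the median of the macrophage mean.

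**Figure D5:**
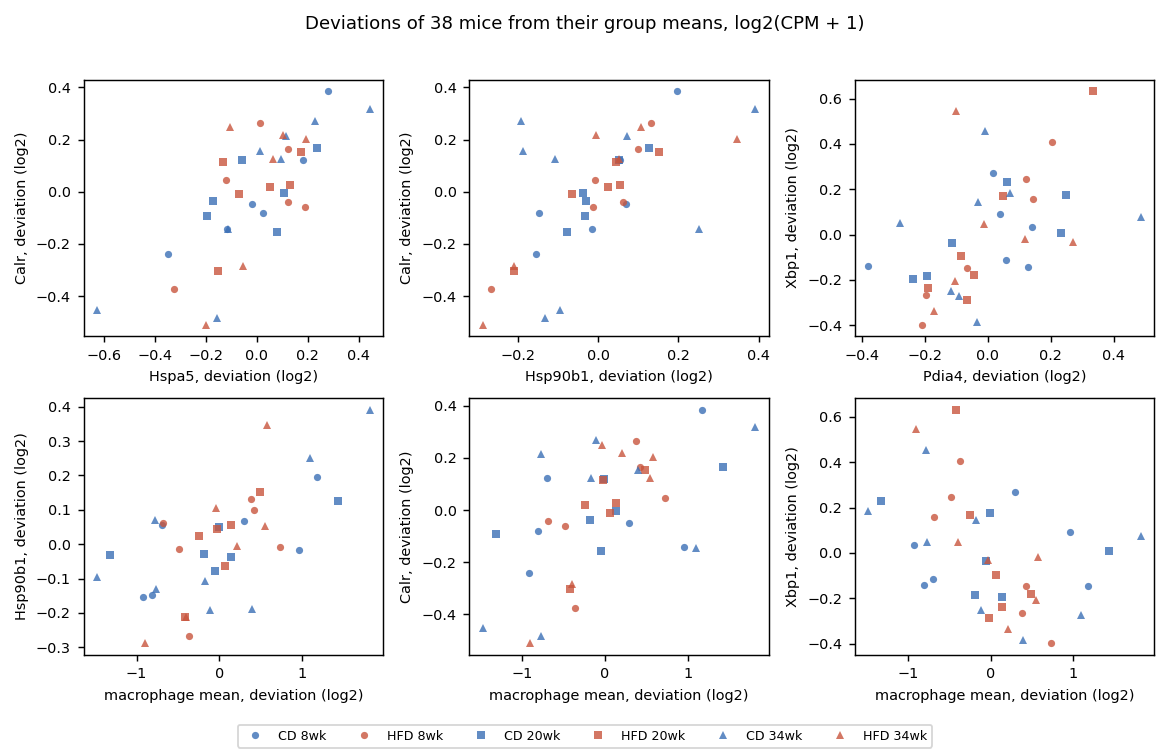
Deviations of each mouse from its group mean in log2(CPM + 1) for 6 pairs of measures, with the measure named on each axis. Points are the 38 mice, coloured by diet and shaped by weeks on diet, and macrophage mean is the mean of 17 markers. Hspa5 and Calr rise together (r = 0.73), and Xbp1 falls as the macrophage mean rises (r = -0.44).

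Among the 10343 genes tested, those whose deviations were most like those of Hspa5 over the 38 mice were Rbbp8 (r = 0.82), Gadd45b (0.82), Glrx (0.81), Zswim6 (0.81) and Ugcg (0.81), leaving out predicted genes. Of the UPR genes Calr ranked number 73 (0.73), Atf4 number 923 (0.58) and Hsp90b1 number 1319 (0.54) for likeness to Hspa5. Those most like Ddit3 were Bcl3 (r = 0.73), Ankrd23 (0.69), Rrad (0.68), Kif5a (0.68) and C1qtnf1 (0.68). Of the other UPR genes Hspa5 came nearest to Ddit3 at r = 0.32, a pair that was not called. Its rho was -0.02, and its r was -0.11 without the 2 mice farthest from the median of Hspa5. These correlations are descriptions over mice whose values share a scale to a fixed sum.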

How the data were processed

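RNA-seq libraries of 38 mice (114 labelled samples, 3 technical replicates each) were analysed. According to the methods, the authors aligned reads to mm10 with STAR, counted them with featureCounts on exons of GENCODE vM2 and used edgeR's TMM normalization. Per the labels, polyA RNA and a stranded kit were used. The deposited CPM values summed to 1000000 per mouse, so no TMM factor was visible, and 100% were whole multiples of 1 read (0.0646 to 0.108 CPM) within 0.1 reads. The reads so recovered served edgeR, which called 4521, 6042 and 4478 genes at 8, 20 and 34 weeks.

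Values were transformed to log2(CPM + 1), and 10343 genes with a mean above 2 entered limma (version 3.58.1, R 4.3.3, mean-variance trend, 6 groups in 1 fit, 32 residual degrees of freedom, two-sided, Benjamini-Hochberg adjustment over all genes tested, threshold 0.05). Fold changes are on the log2(CPM + 1) scale, which understates changes of low genes such as Trib3. Alternatives were a pseudocount of 0.25, no filter, TMM and median-of-ratios factors, edgeR 4.0.16, array weights, a macrophage term, the mouse number as a block, the mice of 1 time alone and each mouse left out.

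No 2 of 103 pairs of mice within a group were alike (mean chi-square of at least 10.6 per gene, where 1 is expected of 1 library read again). The labels do not say which mice shared a cage or a day. The limma p-values set each difference between groups against the spread between these mice, pooled over the 6 groups. Genes named are the 10 UPR genes, the 3 sensors, up to 3 of the largest rises and falls at 20 weeks in each list, and the 5 genes most like Hspa5 and Ddit3. A gene that this rule names in the degradation list is not reported here. The members and lists were chosen with earlier results of these data known. Positions are those of RefSeq on GRCm38.p6, and CPM per kb used exon lengths of GENCODE vM21 rather than vM2. Genes of the lists that were renamed were looked up by both symbols. Reads carry no molecular identifiers.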

Additional observations from a re-analysis of the deposited data

Results flagged for a closer look

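Among 60 combinations of a UPR gene and a group, 5 had a mouse far from the rest of its group, where about 1 in 20 is flagged by chance. Dnajb9 was at 309 CPM in CD mouse 3 at 20 weeks, and the next mouse was at 147 CPM. The same mouse had the lowest Atf4 of its group, 182 CPM, with the next at 295 CPM. Pdia4 was at 93.9 CPM in CD mouse 1 at 8 weeks, under the next mouse at 124 CPM, and at 138 CPM in CD mouse 5 at 34 weeks, above the next at 104 CPM. Xbp1 was at 229 CPM in HFD mouse 6 at 34 weeks, above the next at 162 CPM.

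The diet difference changed with time, by an interaction term of limma, for 3 genes. Between 20 and 34 weeks that of Dnajb9 moved by 0.83 (adjusted p = 0.0233) and that of Xbp1 by 0.67 (adjusted p = 0.0376), both towards 0. Without CD mouse 3 at 20 weeks the value of Dnajb9 was 0.62 (adjusted p = 0.0409). Between 8 and 34 weeks Calr moved by 0.65 (adjusted p = 0.0110) and Xbp1 by 0.66 (adjusted p = 0.0200).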

How the results depend on the processing

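Counts below are of the 10 UPR genes called, and the cause of each move was not tested. HFD against CD at 20 weeks gave 3 with a macrophage term (6 as reported). At 34 weeks (4 as reported) it gave 2 with no filter, with TMM factors, with median-of-ratios factors and with the mouse number as a block, and 1 with a macrophage term and with the mice of that time alone. CD at 20 against 8 weeks gave 3 with array weights and with a macrophage term (0 as reported). HFD at 20 against 8 weeks (1) gave 0 with no filter, edgeR or a macrophage term and 3 with array weights, and HFD at 34 against 8 weeks (3) gave 1 with a macrophage term. The diet difference at 20 against 8 weeks (0) gave 1 with TMM factors and edgeR and 4 with array weights. At 34 against 20 weeks (2) it gave 1 with no filter, a macrophage term or the block and 5 with array weights, and at 34 against 8 weeks (2) it gave 4 with edgeR and 6 with array weights. Pairs of genes related within groups went from 6 to 2 with TMM factors.

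Leaving out 1 mouse gave 2 to 4 genes at 8 weeks, 5 to 7 at 20 weeks and 1 to 5 at 34 weeks for HFD against CD, 0 and 6 to 8 for CD at 20 and 34 against 8 weeks, and 0 to 1 and 2 to 4 for HFD. For the diet difference it gave 0 to 2 (20 against 8 weeks), 1 to 2 (34 against 20) and 2 to 4 (34 against 8). Of the 30 diet differences 9 had another sign under some setting, and 1 of these was called under some setting. Among differences over diet or time called under some setting, signs changed for Hspa5 at 20 weeks with a macrophage term (-0.012) and for Hsp90b1 in HFD at 34 against 8 weeks with that term (-0.020). Herpud1 in HFD at 34 against 8 weeks (0.03) went to -0.080 with TMM factors, -0.059 with median-of-ratios factors, -0.045 with edgeR, -0.27 with array weights (adjusted p = 0.0248) and -0.14 with a macrophage term, and lay between -0.020 and 0.15 with 1 mouse left out.

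Over all genes, calls of HFD against CD went from 4648 to 7032 with array weights at 8 weeks, from 5894 to 2745 with a macrophage term at 20 weeks, and from 4468 to 1170 with that term and 2457 with the mice of that time alone at 34 weeks. Array weights and a macrophage term gave 1543 and 812 (370 as reported) for CD at 20 against 8 weeks and 6392 and 574 (3772) for HFD, the term gave 1626 (5432) for HFD at 34 against 8 weeks, and array weights gave 4263 (464) and 3407 (1089) for the diet difference at 20 against 8 and 34 against 20 weeks. Deviations of same-numbered mice from their group means had correlations of -0.68 to 0.55 (median -0.07, 30 of 90 over 0.1). Differently numbered mice were not compared, so whether the numbers pair mice was not tested. The block left out CD mice 7 and 8 at 34 weeks.

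Of 100 differences of a UPR gene, 54 were called under some setting and 46 under none. Precision is limited by 6 to 8 mice a group and, for Trib3, by 18 to 127 reads a mouse.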
